A study of Mus musculus with 2 samples.

Results

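The mouse interferon-induced transmembrane genes Ifitm1, Ifitm2, Ifitm3 and Ifitm6 were followed across the leukocytes of the aorta. They were found as the rows of both count tables whose symbol is one of these names, 4 of 32285 genes. The members were chosen by their UMI counts across the cell types of both libraries, which were already known, so their levels are given as a description and carry no test. There were 2 single-cell RNA libraries, both of aortic cells gated on CD45, the surface antigen of white cells. In 1 library the mice had received ZnDPA@siIRF5, whose name gives an siRNA against IRF5, an interferon regulatory factor, and the other library is labelled control. The sources used here give no strain, genotype, age or time, nor how many animals were pooled or what the controls received. There were no replicates, so differences between the mice or the preparations and the treatment cannot be told apart, and all intervals are 95% intervals that cover counting error only.

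IFITM proteins are small membrane proteins that sit in the plasma membrane and in endosomes, where they hinder the fusion of enveloped viruses with the cell. IFITM3 acts mainly in endosomes and lysosomes, after sorting by a signal near its amino end, whereas IFITM1 lies more at the cell surface. Interferons raise IFITM genes in many cell types, through interferon-stimulated response elements bound by STAT and IRF factors, but several leukocytes also hold IFITM transcripts at rest. Ifitm6 is a rodent member whose part in restriction is less well defined.

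In the GENCODE annotation of GRCm38 all 4 members are protein-coding genes of chromosome 7, within a span of 63088 bases. Ifitm2 (ENSMUSG00000060591) lies on the minus strand from 140954837 to 140955987. Ifitm1 (ENSMUSG00000025491) is the member on the plus strand, from 140967221 to 140969825. Ifitm3 (ENSMUSG00000025492) and Ifitm6 (ENSMUSG00000059108) follow on the minus strand, from 141009586 to 141010770 and from 141015699 to 141017924. Reads were counted at the 3′ ends of transcripts, where near-identical copies could share them. Of the windows of 90 bases in the last 500 bases of their transcripts, none was shared with another gene for Ifitm1 (0 of 411), Ifitm3 (0 of 411) or Ifitm6 (0 of 418). For Ifitm2, 109 of 411 windows also lie in the pseudogenes Gm11951, Gm45717 or Gm8865, so part of its reads could have been set aside as ambiguous, and its level is less certain.

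The promoters are shown because the members share an interferon label but not the same start sequence. Each is 300 bases, from 250 bases before to 50 bases after the start in RefSeq, build GRCm38.p6, written 5′ to 3′ on the gene's strand. They lie at chr7:140967826-140968125 on the plus strand for Ifitm1, and on the minus strand at chr7:140955912-140956211 for Ifitm2, chr7:141010695-141010994 for Ifitm3 and chr7:141016843-141017142 for Ifitm6. Capitals mark matches, on either strand, to GAAA followed by any 2 bases and GAAA again, the core of the interferon-stimulated response element.
Ifitm1: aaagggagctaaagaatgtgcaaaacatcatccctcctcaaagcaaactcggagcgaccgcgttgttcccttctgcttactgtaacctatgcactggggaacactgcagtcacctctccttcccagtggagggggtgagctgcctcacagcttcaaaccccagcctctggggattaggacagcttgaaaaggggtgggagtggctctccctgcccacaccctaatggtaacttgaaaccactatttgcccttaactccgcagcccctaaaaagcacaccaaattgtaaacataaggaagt
Ifitm2: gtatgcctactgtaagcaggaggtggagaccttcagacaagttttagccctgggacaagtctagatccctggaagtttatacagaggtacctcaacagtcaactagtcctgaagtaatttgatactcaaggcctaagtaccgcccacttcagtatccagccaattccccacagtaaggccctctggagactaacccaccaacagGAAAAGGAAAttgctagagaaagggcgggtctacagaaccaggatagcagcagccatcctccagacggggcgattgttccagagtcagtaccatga
Ifitm3: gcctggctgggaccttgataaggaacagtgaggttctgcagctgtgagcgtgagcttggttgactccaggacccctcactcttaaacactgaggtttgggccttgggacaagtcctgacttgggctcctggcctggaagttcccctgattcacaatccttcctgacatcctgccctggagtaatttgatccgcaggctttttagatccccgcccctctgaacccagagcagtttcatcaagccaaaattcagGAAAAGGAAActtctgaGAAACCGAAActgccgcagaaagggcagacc
Ifitm6: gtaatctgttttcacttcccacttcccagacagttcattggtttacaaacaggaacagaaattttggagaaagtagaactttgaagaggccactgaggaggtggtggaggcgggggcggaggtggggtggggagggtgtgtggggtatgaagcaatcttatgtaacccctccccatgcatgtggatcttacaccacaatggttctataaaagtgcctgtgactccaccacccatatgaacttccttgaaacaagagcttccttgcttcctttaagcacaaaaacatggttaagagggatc
The Ifitm3 promoter held 2 matches, GAAAAGGAAA beginning 2 bases and GAAACCGAAA beginning 19 bases downstream of the start base. The Ifitm2 promoter held 1, again GAAAAGGAAA, beginning 46 bases before the start. No match lay in the windows of Ifitm1 and Ifitm6. For these 2 genes, with 3 GENCODE transcripts each, the windows lie inside the GENCODE spans given above. Their starts further upstream were not scanned, so the members cannot be ranked by response elements. Of the 32851 promoters of this length, 3.44% held the motif. TTCNNNGAA, the motif that STAT factors bind at interferon gamma-activated sites, was found in the Ifitm3 promoter 13 bases downstream of the start base, overlapping the second response-element match, and in the Ifitm6 promoter 10 bases before the start. It was found in 8.30% of all promoters, and in neither Ifitm1 nor Ifitm2. These are matches of letters and not measured binding sites.

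After the filters, 11971 cells remained in the treated-labelled library and 11590 in the control-labelled library, at median depths of 4579 and 4646 UMIs (unique molecular identifiers, which count each captured transcript once). The libraries shared 45 cell barcodes, 37 of them among kept cells. Immunoglobulin transcripts took 5.98% of the UMIs of the treated-labelled library and 16.0% of those of the control-labelled library. Irf5, the target of the siRNA, was not lower in macrophage-like cells of the treated-labelled library, with 119 CPM (UMIs of the gene per 1000000 UMIs of the class), against 111 CPM in the control-labelled library (log2 ratio 0.11, -0.01 to 0.22). The target therefore could not check the labels, and the libraries are called by them. Cells were clustered without the Ifitm genes and clusters were named from marker lists, as "-like" classes. S100a8 and S100a9, which neutrophils hold in great amounts, serve below as a gauge of free RNA. Together they reached 238 and 180 CPM in T cell-like cells and 165 and 132 CPM in B cell-like cells, which should lack them.

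The 4 members had 3 leading classes between them. Ifitm1 and Ifitm2 were highest in neutrophil-like cells, Ifitm3 in classical monocyte-like cells and Ifitm6 in granulocyte precursor-like cells, in both libraries. Each captured molecule gives 1 UMI whatever the transcript's length, so CPM levels of the members are set side by side. Whether transcripts of the members were captured and counted equally well was not tested. For Ifitm2 the comparison holds less well, as part of its reads could have been set aside. That would make its level and family share too low. Lymphoid classes held far less Ifitm2 and Ifitm3 than granulocytes, monocytes and macrophages, while Ifitm1 was about as low in macrophage-like cells as in some lymphoid classes.

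**Figure D1:**
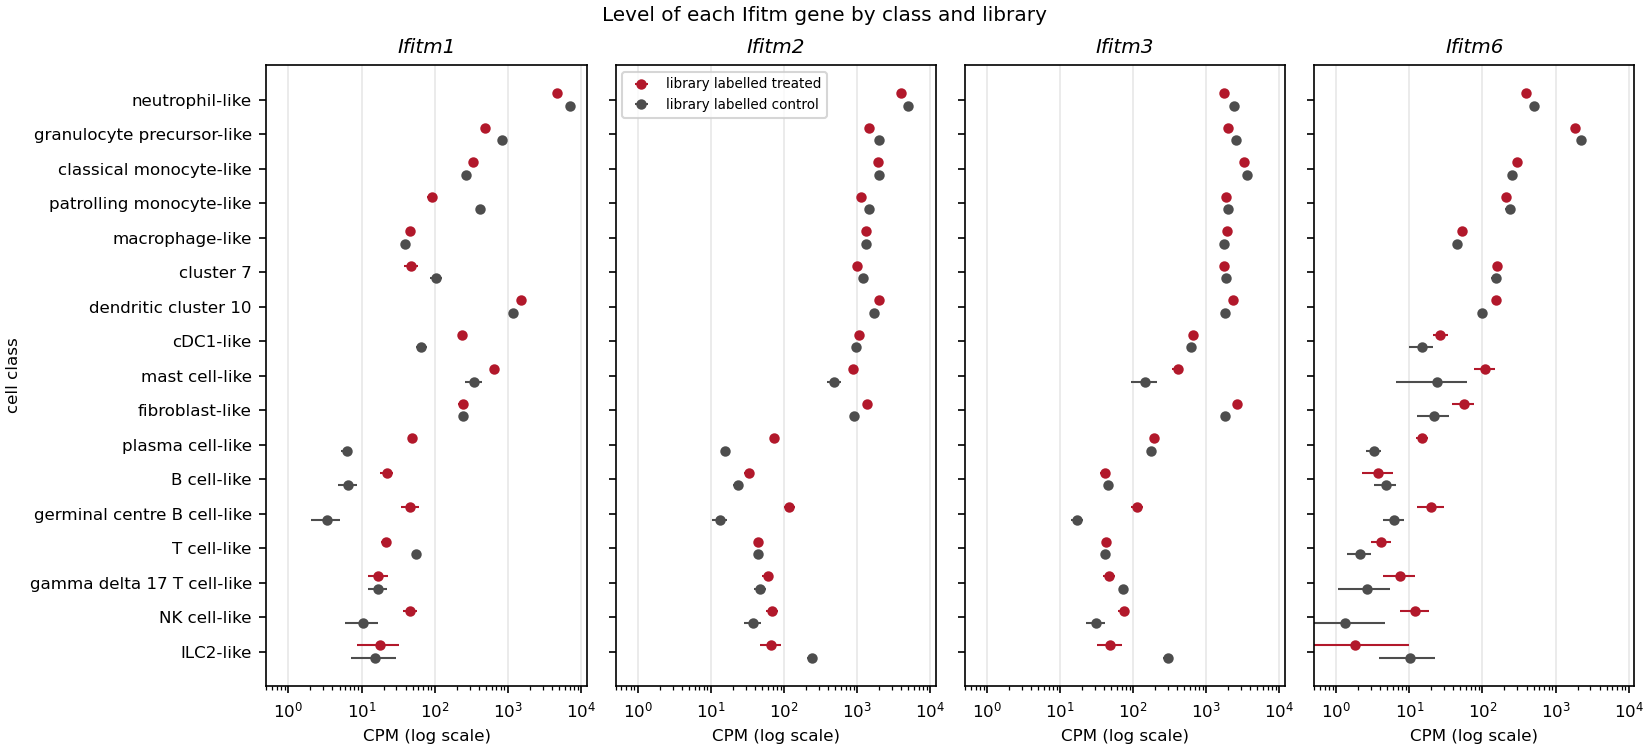
Level of each Ifitm gene in 17 cell classes, in CPM on a log scale, with a point per library and exact Poisson 95% intervals. Ifitm1 stands at 4755 CPM in neutrophil-like cells of the treated-labelled library and 7076 CPM in those of the control-labelled library, while macrophage-like cells hold 46.3 and 38.7 CPM.

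Ifitm1 was a granulocyte transcript that also marked part of the dendritic cells. Neutrophil-like cells held 4755 CPM (4684 to 4826) in the treated-labelled library and 7076 CPM (6960 to 7195) in the control-labelled library. They carried 52.8% of all Ifitm1 UMIs of the treated-labelled library and 61.4% of those of the control-labelled library. The next class in the treated-labelled library was dendritic cluster 10, with 1522 CPM, against 1173 CPM in the control-labelled library. This cluster met the rule for migratory dendritic cells but was led by both Fscn1, an actin-bundling protein of migrating dendritic cells, and Cd209a, a lectin of type 2 conventional dendritic cells. Macrophage-like cells were low in the order with 46.3 and 38.7 CPM. In the treated-labelled library their interval overlapped those of plasma cell-like and NK cell-like cells (48.3 and 46.7 CPM), while in the control-labelled library those classes lay below, at 6.29 and 10.4 CPM. An Ifitm1 UMI was found in 11.1% of macrophage-like cells of the treated-labelled library and 9.60% of those of the control-labelled library. The median depths of these cells were 5955 and 5920 UMIs. When every cell was thinned to 2000 UMIs the shares were 5.08% and 3.78%, with 180 and 120 shallower cells left out, while B cell-like cells gave 2.13% and 1.98%, at unthinned median depths of 4794 and 4123 UMIs. The 5 macrophage-like cells with most Ifitm1 had a median of 101 and 18 UMIs of S100a8 and S100a9, against a class median of 1 in each library, and the part of neutrophil RNA in the macrophage level was not tested.

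Ifitm2 was spread more evenly over the myeloid classes. Neutrophil-like cells held 3943 CPM in the treated-labelled library and 4975 CPM in the control-labelled library, at a median of 7 and 10 UMIs per cell. Classical monocyte-like cells held 1917 CPM (1891 to 1942) and 1998 CPM (1954 to 2042), and macrophage-like cells 1309 CPM (1289 to 1329) and 1306 CPM (1283 to 1329). In the treated-labelled library the level of classical monocyte-like cells could not be told from that of dendritic cluster 10 (1971 CPM), nor that of macrophage-like cells from that of fibroblast-like cells (1381 CPM). cDC1-like cells, dendritic cells that present antigen to CD8 T cells, held 1048 and 970 CPM, and Ifitm2 made up more of their family UMIs than in any other class of both libraries with at least 100 cells in each (53.3% and 58.4%).

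Ifitm3, best known for restricting influenza virus, was the most abundant member in the monocyte and macrophage classes, except in macrophages led by Spp1 (below). Classical monocyte-like cells held 3276 CPM (3243 to 3310) in the treated-labelled library and 3557 CPM (3499 to 3616) in the control-labelled library, at a median of 17 and 22 UMIs per cell. Granulocyte precursor-like cells held 1962 and 2556 CPM, macrophage-like cells 1924 and 1725 CPM, patrolling monocyte-like cells 1852 and 1986 CPM, and neutrophil-like cells 1764 and 2404 CPM. These 4 classes lay close together in the treated-labelled library, where each overlapped the next in order. Ifitm3 made 57.7% (of the treated-labelled library) and 55.4% (of the control-labelled library) of the family's UMIs in macrophage-like cells but 16.3% and 16.1% in neutrophil-like cells. At least 1 Ifitm3 UMI was found in 89.0% and 89.3% of macrophage-like cells, and in 14.2% and 12.7% of T cell-like cells, whose median depths were 4741 and 4160 UMIs. After thinning to 2000 UMIs these shares were 85.1% and 83.9% of macrophage-like cells and 6.87% and 6.86% of T cell-like cells. Fibroblast-like cells, which do not carry CD45 and are few in this gate (98 and 116 cells), held 2609 and 1815 CPM.

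Ifitm6 was concentrated in granulocyte precursor-like cells, with 1827 CPM (1786 to 1869) in the treated-labelled library and 2211 CPM (2162 to 2261) in the control-labelled library. They held 50.8% and 70.4% of the Ifitm6 UMIs of their libraries. The class was broad: in the finer clustering given below, 645 of its cells lay in a cluster led by Retnlg and Mmp8. That cluster met the rule for neutrophils. A further 394 cells lay in a cluster led by Camp and Ltf. Neutrophil-like cells followed with 394 and 511 CPM, then classical monocyte-like cells with 301 and 253 CPM and patrolling monocyte-like cells with 207 and 239 CPM. The last pair overlapped in the control-labelled library and stood apart in the treated-labelled library. Macrophage-like cells held 52.9 and 45.2 CPM, and thinned to 2000 UMIs 8.89% and 8.23% of them had an Ifitm6 UMI, against 0.829% and 0.404% of T cell-like cells.

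**Figure D2:**
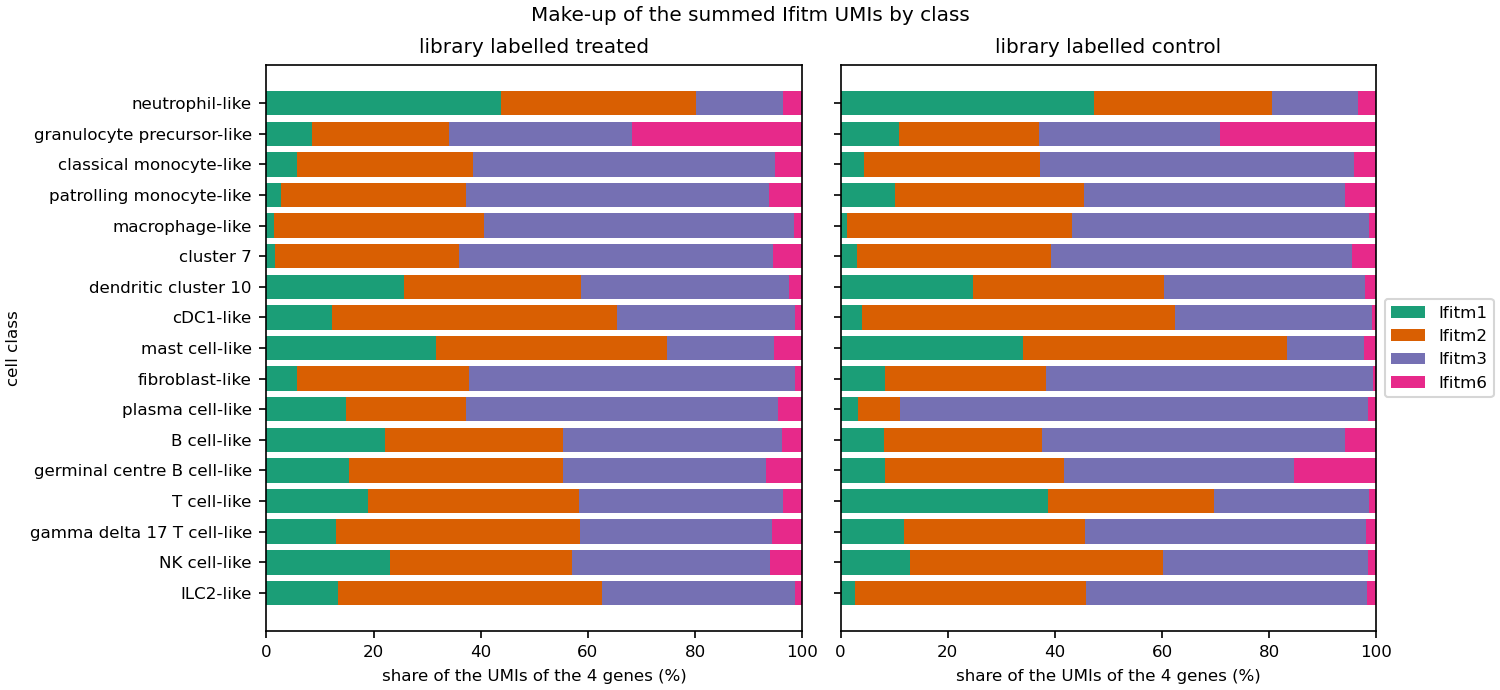
Share of the summed UMIs of the 4 members taken by each member, in percent, by cell class, with the treated-labelled library on the left and the control-labelled library on the right. Ifitm6 takes 31.8% and 29.2% of the family in granulocyte precursor-like cells and under 6% in monocyte, macrophage and neutrophil classes except patrolling monocyte-like cells of the treated-labelled library (6.29%).

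The granulocyte clusters separated Ifitm6 from Ifitm1 by stage. At the finer Leiden resolution of 2, granulocytes formed 5 clusters, which are set in the textbook order of maturation of their leading genes: Elane and Mpo (proteases and peroxidase of primary granules), Camp and Ltf (secondary granules), Retnlg and Mmp8 (late granule genes), Stfa2l1 and Cxcr2 (the chemokine receptor of mature neutrophils), and Hcar2 and Il1f9. This order was not derived from the cells. Ifitm6 was 181 CPM in the Elane cluster of the treated-labelled library and 85.5 CPM in that of the control-labelled library. It was 2806 and 2874 CPM in the Camp cluster and 2528 and 3297 CPM in the Retnlg cluster, so that the Camp cluster was the higher of the pair in the treated-labelled library and the Retnlg cluster in the control-labelled library, with no overlap of the intervals in either. In the Cxcr2 cluster it was 571 and 722 CPM, and in the Hcar2 cluster 194 and 218 CPM. Ifitm1 was low in the Elane cluster (160 and 475 CPM) and the Camp cluster (95.1 and 179 CPM), intermediate in the Retnlg cluster (1217 and 2346 CPM), and highest in the Cxcr2 cluster (5466 and 8196 CPM), before the Hcar2 cluster (3982 and 5966 CPM). The highest Ifitm6 level thus stood in the Camp or the Retnlg cluster and the highest Ifitm1 level in the Cxcr2 cluster, in both libraries. Ifitm3 varied less, between 1404 CPM in the Hcar2 cluster and 2434 CPM in the Retnlg cluster of the treated-labelled library, and between 1651 CPM in the Elane cluster and 3560 CPM in the Retnlg cluster of the control-labelled library.

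**Figure D3:**
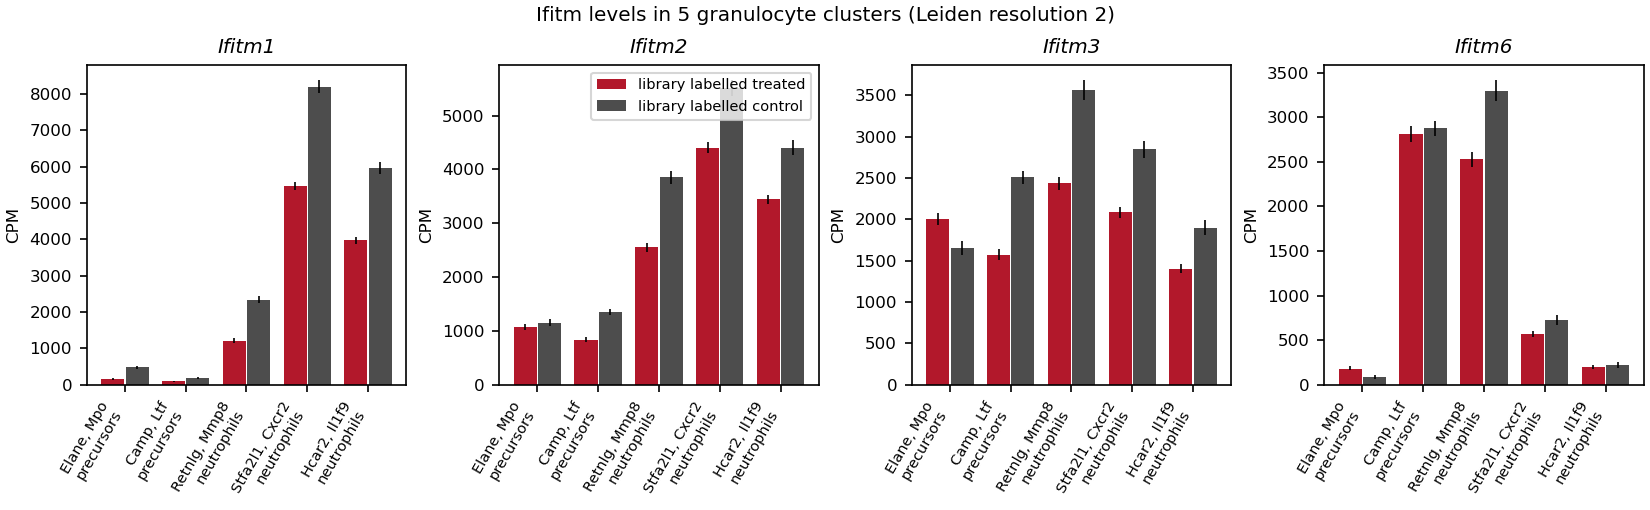
CPM of each member in 5 granulocyte clusters, from the Elane, Mpo precursors on the left to the Hcar2, Il1f9 neutrophils on the right, with a bar per library and exact Poisson 95% intervals. Bars of the treated-labelled library are lower in 18 of 20 pairs, the exceptions being Ifitm3 and Ifitm6 in the Elane, Mpo precursors.

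Within these 5 clusters the members were lower in the treated-labelled library in 18 of 20 pairs, and the interval lay below 0 in 16. Of all genes tested in the same clusters 42.2% were lower, and their median log2 ratio lay between 0.03 and 0.10. The share of all genes with an interval below 0 was not computed, and the narrow intervals of abundant genes leave out 0 more easily. In the Stfa2l1, Cxcr2 cluster Ifitm1 was 5466 CPM, against 8196 CPM in the control-labelled library, a log2 ratio of -0.58 (-0.63 to -0.54). In the Elane, Mpo cluster, which held 82 and 46 cells, Ifitm3 was 2001 and 1651 CPM (log2 ratio 0.28, 0.19 to 0.37) and Ifitm6 181 and 85.5 CPM (1.08, 0.73 to 1.45). Both of these values were higher in the treated-labelled library, unlike those of the later clusters.

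Resolution 2 also divided the other Ifitm1-bearing cells. Cluster 13, a cDC2-like cluster led by Cd209a (436 and 191 cells), held 1770 CPM of Ifitm1 in the treated-labelled library and 1500 CPM in the control-labelled library. Cluster 39, migratory DC-like and led by Fscn1 and Ccr7, the receptor that guides dendritic cells to lymph nodes, held 237 and 174 CPM. Ifitm3 was likewise 2862 and 2400 CPM in cluster 13, against 417 and 432 CPM in cluster 39. Both members were thus several-fold higher in the Cd209a cells than in the Fscn1 cells, in each library. Basophil-like cells (cluster 29, led by Prss34, Mcpt8 and Il4; 286 and 39 cells) had lain mostly inside the classical monocyte-like class, with 257 of 325 cells there. They held 907 and 1155 CPM of Ifitm1 and 1802 and 1290 CPM of Ifitm3. Most of the other cells of that class lay in clusters 9 and 3 of resolution 2, with 1585 and 311 cells. Cluster 9, led by Vcan, had 293 and 303 CPM of Ifitm1 (log2 ratio -0.05, -0.17 to 0.06). Cluster 3, led by Cxcl9 and Cfb, had 194 and 76.2 CPM (1.35, 0.91 to 1.81), where 11.2% of genes passed 1.5-fold higher. For the whole class the log2 ratio was 0.32 (0.22 to 0.42). Ifitm3 was high in both, at 3833 and 3819 CPM in cluster 3 and 3321 and 3750 CPM in cluster 9. Mast cell-like cells apart from basophils (cluster 32; 91 and 51 cells) held 111 and 65.5 CPM of Ifitm1, and the 646 and 341 CPM of the broader class included 48 cells of the basophil-like cluster.

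The macrophage-like clusters of resolution 2 differed several-fold in Ifitm3. The cluster led by Spp1, Mmp12, Gpnmb and Trem2, genes of lipid-loaded macrophages, held 570 CPM (540 to 601) in the treated-labelled library and 537 CPM (504 to 571) in the control-labelled library. The cluster led by the chemokines Ccl4, Ccl12 and Ccl7 held 2304 and 1822 CPM, and the cluster led by Lyve1, Folr2 and Cd163, genes of resident adventitial macrophages, 2055 and 2045 CPM. A further cluster led by Hspa1b, Hspa1a and Egr1, stress and early-response genes, held 2353 and 2392 CPM. Ifitm2 was lower in the Spp1 cluster too, with 698 and 671 CPM, against 1411 and 1302 CPM in the chemokine cluster and 1414 and 1556 CPM in the Lyve1 cluster. In the Spp1 cluster Ifitm2 stood above Ifitm3 in both libraries, the reverse of their order in the chemokine and Lyve1 clusters. Ifitm6 was 11.2 and 7.94 CPM in the Spp1 cluster, against 76.0 and 73.7 CPM in the Lyve1 cluster. These are orders within each library, and they were the same in both for Ifitm3 in the Spp1 cluster against each of the others.

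Lymphoid cells held little of the family, with some exceptions. Plasma cell-like cells held 190 CPM (180 to 200) of Ifitm3 in the treated-labelled library and 173 CPM (167 to 178) in the control-labelled library, where 68.3% of them had an Ifitm3 UMI. Ifitm3 was 87.2% of the family's UMIs there in the control-labelled library, against 58.1% in the treated-labelled library. In B cell-like cells it was 40.7 and 45.6 CPM, and in T cell-like cells 43.0 and 41.1 CPM. Thinned to 2000 UMIs, an Ifitm3 UMI was found in 24.5% and 27.0% of plasma cell-like cells and in 5.80% and 7.04% of B cell-like cells. S100a8 and S100a9 together were 675 and 279 CPM in plasma cell-like cells.

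Clusters led by interferon-response genes gave a view of Ifitm3 in lymphocytes. At resolution 2, a B cell-like cluster led by Ifit3, Ifi214 and Ifi44 (1 and 24 cells) held 172 CPM of Ifitm3 (100 to 276) with the libraries pooled. The other 3 B cell-like clusters held between 28.0 and 62.1 CPM. A T cell-like cluster led by Ifit3, Ifit1 and Usp18 (4 and 76 cells) held 104 CPM (74.3 to 142), against 19.5 to 123 CPM in the other T cell-like clusters. Ifitm2 was 20.3 CPM in the B cell-like one, just below the 21.7 to 37.2 CPM of the other B cell-like clusters, and 33.8 CPM in the T cell-like one, within the range of its class. As the clusters were made from these cells, the values are descriptions.

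A small group of T cells stood out for Ifitm1. In cluster 14, led by Gzmk, Ccl5 and Nkg7, genes of effector CD8 T cells, Ifitm1 was 44.3 CPM in the treated-labelled library and 275 CPM in the control-labelled library. T cell-like cells with at least 5 Ifitm1 UMIs and at most 5 UMIs of S100a8 and S100a9 numbered 7 of 1805 in the treated-labelled library and 43 of 2874 in the control-labelled library, limits set after the data were seen. The 43 cells of the control-labelled library held 618 Ifitm1 UMIs but 66 of Ifitm2, 33 of Ifitm3 and 0 of Ifitm6, where a count of 0 allows up to 3. These cells were picked for their Ifitm1, so its excess over the other members follows in part from the choice. Cd3e, a chain of the T cell receptor complex, was found in 41 of them and Cd8a in 32, and 40 lay in cluster 14. Compared with the other cells of that cluster in the control-labelled library, they held 1498 against 394 CPM of S100a4, 1102 against 165 CPM of Lgals3, 5.27 against 250 CPM of Eomes and 100.2 against 413 CPM of Gzmk. S100a4 and Lgals3 encode a calcium-binding protein and galectin-3, and Eomes is a transcription factor of effector and memory CD8 T cells. Of the 7 such cells of the treated-labelled library, Cd8a was found in 3, and 4 lay in cluster 14.

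In macrophage-like cells as a class, the cell type named in the study's design, no member differed by 1.5-fold between the libraries. For Ifitm3, 24501 UMIs in 1912 cells gave 1924 CPM in the treated-labelled library, and 16665 UMIs in 1468 cells gave 1725 CPM in the control-labelled library, a difference of 0.16 on the log2 scale (0.13 to 0.19). Ifitm2 was 1309 and 1306 CPM, a log2 ratio of 0.00 (-0.03 to 0.04). The ratios of the scarce members were 0.26 (0.07 to 0.45) for Ifitm1 and 0.22 (0.05 to 0.40) for Ifitm6. That size was passed by 3.05% of the 5927 genes tested in either direction, and the median of all genes tested was 0.04. At the main resolution Ifitm3 was 2221 and 1738 CPM in the chemokine cluster (0.35, 0.31 to 0.40) and 2207 and 2239 CPM in the Lyve1 cluster (-0.02, -0.06 to 0.02). Ifitm1, scarce in all of these clusters, passed 1.5-fold in some of them, in both directions. In the Spp1 cluster it was 60.3 and 28.9 CPM (1.06, 0.58 to 1.56; background 3.58% higher). At resolution 2 it was 48.8 and 20.5 CPM in the Hspa1b cluster (1.26, 0.66 to 1.90; 4.38% higher), where Ifitm6 was 0.65 (0.24 to 1.07), and 21.3 and 34.0 CPM in the Lyve1 cluster (-0.67, -1.14 to -0.22; 2.48% lower). The class ratios also changed with the cells used: in cells with at most 1 UMI of the markers of other classes, Ifitm3 was -0.18 and Ifitm1 1.27, from 199 and 102 cells. With that limit on the first 3 markers of each list, chosen after the data were seen because the whole lists left so few cells, 833 and 508 cells remained and the values were -0.024 for Ifitm3 and 1.79 for Ifitm1.

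**Figure D4:**
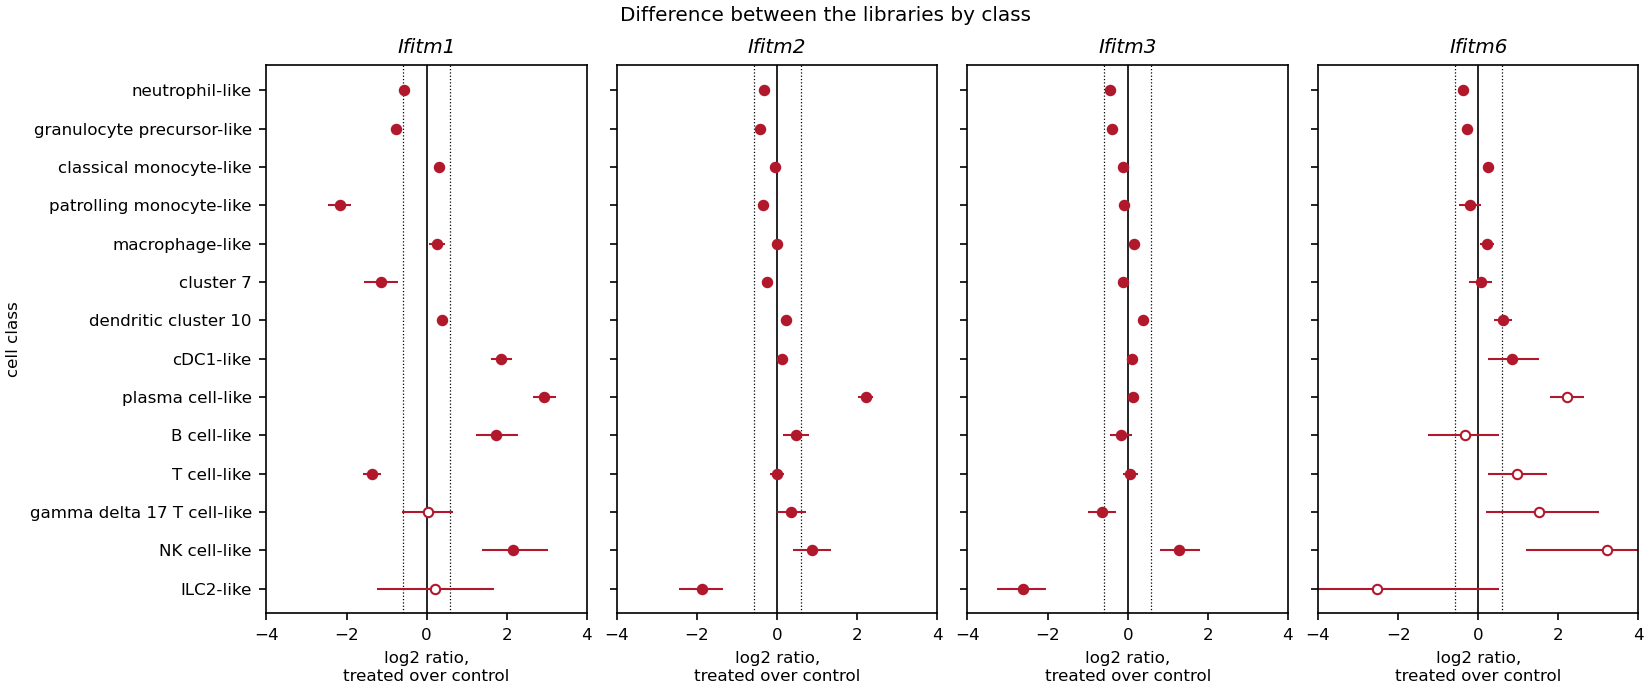
Log2 ratio of the treated-labelled library over the control-labelled library for each member in 14 classes with at least 100 cells in each library, with exact conditional binomial 95% intervals. Open points did not meet the abundance rule, dotted lines mark 1.5-fold, and the largest values lie in classes with few UMIs of the member.

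Neutrophil-like cells held less of all 4 members in the treated-labelled library. The log2 ratios were -0.57 (-0.61 to -0.54) for Ifitm1, -0.34 (-0.37 to -0.30) for Ifitm2, -0.45 (-0.50 to -0.39) for Ifitm3 and -0.37 (-0.49 to -0.26) for Ifitm6, beside a median of 0.07 over the 3973 genes tested. None passed 1.5-fold lower, a size passed by 2.67% of genes. Granulocyte precursor-like cells gave -0.75 (-0.84 to -0.67), -0.43 (-0.48 to -0.38), -0.38 (-0.42 to -0.34) and -0.28 (-0.32 to -0.23) in the same order of members. Ifitm1 was past 1.5-fold lower there, as were 4.71% of the genes tested. This class includes most cells of the Retnlg, Mmp8 cluster, which was neutrophil-like by the naming rule. In classical monocyte-like cells no member passed 1.5-fold (background 3.27% in either direction), and Ifitm3 was slightly lower at -0.12 (-0.15 to -0.09).

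Over 14 classes and 4 members, 48 of 56 pairs met the abundance rule of 50 UMIs and 20 CPM in one library, and 16 passed 1.5-fold, against 6.30% of all pairs of a gene and a class that met it. Ifitm1 supplied 8 of the 16, among them several that rested on few cells. In plasma cell-like cells Ifitm1 was 48.3 CPM, against 6.29 CPM in the control-labelled library (log2 ratio 2.94, 2.66 to 3.23) and Ifitm2 73.3 against 15.8 CPM (2.21, 2.02 to 2.40), where 5.60% of genes passed 1.5-fold higher. Ifitm3 in the same cells was 0.14 (0.05 to 0.22). Of the 373 Ifitm1 UMIs of plasma cell-like cells in the treated-labelled library, 123 lay in 1 cell, and without the 5 highest cells of each library the levels were 17.3 and 4.58 CPM. S100a8 and S100a9, at 675 and 279 CPM, were also higher there in the treated-labelled library, and their part in these ratios was not tested.

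In B and NK cell-like cells the Ifitm1 difference lay largely in single cells. In B cell-like cells of the treated-labelled library, 58 of 105 Ifitm1 UMIs lay in 1 cell, and the level of 22.0 against 6.58 CPM became 6.14 against 5.48 CPM without the 5 highest cells (background 1.35% higher). In NK cell-like cells of the treated-labelled library, 52 of 81 UMIs lay in 1 cell, and 46.7 against 10.4 CPM became 7.13 against 6.62 CPM (background 3.43% higher). Patrolling monocyte-like cells had 91.6 and 413 CPM, a log2 ratio of -2.17 (-2.46 to -1.89), where 3.05% of genes passed 1.5-fold lower. Their 5 highest cells held a median of 97 and 456 UMIs of S100a8 and S100a9, against a class median of 1 in each library, and their part in the ratio was not tested. Without the 5 highest cells of each library the levels were 33.7 and 90.6 CPM, still past 1.5-fold lower. With at most 1 UMI of the first 3 markers of each other class, the log2 ratio was 0.30.

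The remaining differences past 1.5-fold were as follows. Ifitm1 in cDC1-like cells was 240 and 66.0 CPM (1.86, 1.60 to 2.13), and 148 and 33.9 CPM without the 5 highest cells, whose S100a8 and S100a9 UMIs had a median of 1 (background 4.06% higher). Ifitm6 in the same class was 26.6 and 14.7 CPM (0.85, 0.23 to 1.51). T cell-like cells, which include cluster 14, gave -1.37 (-1.59 to -1.14) for Ifitm1, where 0.751% of genes passed 1.5-fold lower. In ILC2-like cells (innate lymphocytes of the type 2 kind) Ifitm3 was 48.3 and 298 CPM (-2.62, -3.27 to -2.03) and Ifitm2 66.2 and 244 CPM (-1.88, -2.45 to -1.35), where 6.42% of genes passed 1.5-fold lower. Of the 173 Ifitm3 UMIs of ILC2-like cells in the control-labelled library, 65 and 40 lay in 2 cells, and without the 5 highest cells of each library Ifitm3 was 27.7 and 62.8 CPM and Ifitm2 37.7 and 76.1 CPM. Ifitm2 and Ifitm3 in NK cell-like cells, at 0.86 (0.39 to 1.34) and 1.29 (0.80 to 1.80), were also past 1.5-fold (background 3.43% higher). Of the 130 Ifitm3 UMIs of these cells in the treated-labelled library, 37 lay in 1 cell. Without the 5 highest cells of each library Ifitm3 was 29.0 and 14.6 CPM and Ifitm2 36.0 and 18.6 CPM. Ifitm6 in dendritic cluster 10 was 0.62 (0.40 to 0.85; background 3.96% higher). Ifitm1 in cluster 7, an unnamed cluster led by Lyz1 and Retnla, was -1.14 (-1.57 to -0.71; 2.64% lower), but 5 cells held 86.0% of its UMIs in the control-labelled library, and without the 5 highest cells of each library it was 24.6 and 15.6 CPM, the opposite direction. Ifitm3 in gamma delta 17 T cell-like cells was -0.63 (-0.98 to -0.30; 2.47% lower), 0.044 without the 5 highest cells and 0.74 with the doublet calls kept.

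Genes of the interferon pathway were set beside the members in macrophage-like cells, from lists chosen with results of these data known. Of the 25 genes of the type I interferon response list, 22 were tested, 5 were past 1.5-fold higher and none lower, with a median log2 ratio of 0.35. The largest ratios were those of Ifit2 (1.38, 1.13 to 1.64), Ifit3 (0.84, 0.62 to 1.06), Zbp1 (0.78, 0.61 to 0.95) and Xaf1 (0.70, 0.46 to 0.93). Ifit2 and Ifit3 encode proteins that bind foreign RNA or its partners, Zbp1 a sensor of Z-form nucleic acid and Xaf1 a protein of cell death pathways. Beside 3.05% of all genes in either direction, 1.43% passed 1.5-fold higher.

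Genes of the interferon gamma response had larger ratios. Of 17 on the list, 14 were tested, all above 0, as were 3410 of all 5927 genes tested. Past 1.5-fold higher were 9 of the 14 (background 1.43% higher), and the median was 0.77. Gbp5 (1.19, 0.86 to 1.53), Iigp1 (1.07, 0.87 to 1.28), Gbp2 (1.07, 0.87 to 1.27) and Calhm6 (1.04, 0.71 to 1.38) led, of which Gbp2, Gbp5 and Iigp1 encode GTPases that act against intracellular microbes. The Ifitm members had a median of 0.19. All 10 receptor and signalling genes were tested, none past 1.5-fold, with a median of 0.17. Stat2, a factor that carries interferon signals to the nucleus, had the largest ratio (0.51, 0.30 to 0.72). Tyk2, a kinase of the receptors, was 0.31 (0.04 to 0.60), and Irf9, which binds DNA together with STAT2, was 0.31 (0.11 to 0.52). Bst2, which tethers budding viruses and stands in 2 of the lists, was 0.20 (0.14 to 0.26).

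Other restriction factors and genes that act on IFITM proteins gave mixed values. Of 8 restriction factors 7 were tested, and Eif2ak2, the kinase that senses double-stranded RNA, was 0.63 (0.40 to 0.85), and Ch25h, which makes 25-hydroxycholesterol, -0.68 (-0.94 to -0.42), where 1.62% of genes passed 1.5-fold lower. Samhd1, which depletes nucleotides, was 0.40 (0.32 to 0.48). Of 6 genes for modifiers and partners 3 were tested and none passed 1.5-fold. Vapa, a membrane contact protein that IFITM3 binds, was -0.30 (-0.37 to -0.23), Zdhhc20, a palmitoyltransferase of IFITM3, -0.15 (-0.26 to -0.05), and Vcp, an ATPase linked to IFITM3 trafficking, 0.14 (0.05 to 0.24).

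The type I interferon list was set beside the members in other classes too. In neutrophil-like cells the median log2 ratio was -0.41 for the members and -0.10 for the 23 type I interferon genes tested. Of these, 2 were past 1.5-fold higher, beside 5.24% of all genes, and 2 lower, beside 2.67%. In T cell-like cells 8 of the 15 type I interferon genes tested were past 1.5-fold lower, with a median of -0.59 (background 0.751% lower). Ifitm1 was past it too, at -1.37, while Ifitm2 was 0.00 (-0.18 to 0.18) and Ifitm3 0.07 (-0.12 to 0.25). In B cell-like cells 9 of 12 were past 1.5-fold lower, with a median of -0.89 (background 1.47% lower), while Ifitm3 was -0.17 (-0.43 to 0.10). The median of the members there was 0.48, with Ifitm1 at 1.74 and Ifitm2 at 0.48. The medians of the members and of the list were 0.37 and 0.23 in dendritic cluster 10, -0.28 and -0.19 in patrolling monocyte-like cells and -0.14 and -0.42 in gamma delta 17 T cell-like cells. They were 0.10 and 0.04 in classical monocyte-like cells, -0.41 and -0.07 in granulocyte precursor-like cells and -0.20 and -0.21 in cluster 7. Their signs differed in B cell-like cells, as given above, NK cell-like cells (1.29 and -0.36), plasma cell-like cells (2.21 and -0.04), cDC1-like cells (0.48 and -0.14) and ILC2-like cells (-2.25 and 0.04). In T cell-like cells the median of the members was 0.00. The medians of the members rest on 3 tested members in B, NK and plasma cell-like cells, 4 in cDC1-like cells and 2 in ILC2-like cells. Several of these ratios rested on few cells, as described above. The difference between the list and the members was not tested in any class. The B and T cell-like clusters led by interferon-response genes, described above, lay almost wholly in the control-labelled library. The classical monocyte-like cluster 3, whose leading genes include Cxcl9, Cxcl10 and Rsad2 of the interferon lists, had 270 cells in the treated-labelled library. In the control-labelled library it had 77.

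The genes whose levels ran most like each member were found over 34 profiles, 17 classes in each of the 2 libraries, among 8813 genes. The profiles share their library and its free RNA, and classes were named from markers that include Il1r2 and Trem1, so the correlations are descriptions. For Ifitm1 they were Flot1 (Pearson r 0.91), Il1r2, the decoy receptor of interleukin 1 (0.90), Cpne2 (0.87), Ptgs2os2 (0.86) and Ifitm2 (0.85). For Ifitm2 they were Alox5ap, which feeds leukotriene synthesis (0.96), Il1b (0.96), Gda (0.95), Tgfbi (0.94) and Tnfaip2 (0.94). For Ifitm3 they were Tgfbi (0.95), App (0.94), Ifitm2 (0.94), Gda (0.94) and Tlr2, a receptor of bacterial lipoproteins (0.93). For Ifitm6 they were Pilra (0.93), Slc7a11, a cystine transporter (0.93), F5, coagulation factor V (0.93), Pilrb2 (0.93) and Trem1, an activating receptor of granulocytes (0.92). Among the members the pairs ran from 0.73 for Ifitm1 with Ifitm3 to 0.94 for Ifitm2 with Ifitm3.

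Neighbouring genes varied in their likeness to the members. Of 14 other annotated genes within 100 kb, Pgghg, an enzyme that acts on hydroxylysine-linked sugars, was highest in neutrophil-like cells and had an r of 0.55 with Ifitm1 and 0.60 with Ifitm3. Psmd13, a proteasome subunit, had -0.18 and 0.01. Sigirr, a brake on interleukin 1 and Toll-like receptor signalling, had -0.36 and -0.55, and Pkp3, a desmosome protein, -0.48 and -0.55, and both were highest in gamma delta 17 T cell-like cells. Ifitm5, the bone-restricted member of the cluster, had 141 UMIs in the treated-labelled library and 70 in the control-labelled library and was highest in neutrophil-like cells, at 9.70 CPM in the treated-labelled library, with an r of 0.80 with Ifitm1 and 0.78 with Ifitm3. The other paralogues were sparse as well, with 628 and 545 UMIs for Ifitm10 and 3 and 8 for Ifitm7, which lies on chromosome 16.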

How the data were processed

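Both libraries were made with the 10x Genomics 3′ kit, per the labels' protocols. The deposited values are UMI counts per gene and barcode, not normalized by the authors. The submitters' processing notes list Cell Ranger 3.1.0, Seurat 4.4.0 and mm10, while the file headers name Cell Ranger 7.2.0. No source used here says whether intronic reads counted. Of 32285 gene identifiers, 32158 were found in GENCODE vM21. The libraries held 13155 and 12516 barcodes with 77856529 and 88567528 UMIs, labelled treated first.

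Barcodes with at least 500 genes and at most 15% mitochondrial UMIs were kept. Scrublet in scanpy 1.11.5 marked 505 (3.84%) and 463 (3.70%) doublets, which were removed. Each cell's counts were brought to a total of 10000 and log-transformed. Leiden clusters at resolution 1 were built from 2000 variable genes other than the Ifitm genes, 30 principal components and 15 neighbours (python-igraph 0.11.9, scikit-learn 1.9.0, numpy 2.4.6, scipy 1.17.1). A cluster took the name of the list, of 27, whose markers found in a single list were on average at least 1 log2 unit above the other cells, with at least 3 markers at 20 CPM or more. It stayed unnamed where another class had more of its top 10 genes. T cell lists were merged. This rule was set after the data were seen, and the members, lists and classes were chosen with earlier results of these data known.

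UMIs were summed per class and library and divided by the class total (CPM). Intervals are exact Poisson for levels, Clopper-Pearson for shares and conditional binomial for ratios. Log2 ratios are treated over control, by the labels. Called means past 1.5-fold, among genes with at least 50 UMIs and 20 CPM in a library. A gene at 0 UMIs in 1 library was set to a floor of 3 UMIs. With 1 library per group no test was run. Up to 4 genes with the largest ratio per list in macrophage-like cells, the 5 genes most like each member (Pearson, log2 of CPM plus 1) and genes within 100 kb were named by rule. One gene that this rule names is not reported here. The ratio calculation was tested on simulated counts.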

Additional observations from a re-analysis of the deposited data

How the results depend on the processing

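No paired analysis was possible because each group has 1 library and the labels give no replicate numbers, so no library could be left out either. Of the 16 ratios past 1.5-fold, 16 stayed past it in the same direction with at least 1000 genes per barcode, with at most 5% mitochondrial UMIs and with immunoglobulin, haemoglobin and mitochondrial UMIs out of the denominator, and 12 stayed when each cell counted equally. Without the 5 cells with most UMIs of the member, an alternative chosen after seeing the data, 12 stayed. With at most 1 UMI of other classes' markers 5 of the 6 that still had a value stayed, and with the limit on the first 3 markers of each list, also chosen after seeing the data, 9 of 16. The cause was not tested.

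In macrophage-like cells, the whole-list limit moved Ifitm1 to 1.27, Ifitm2 to -0.44, Ifitm3 to -0.18 and Ifitm6 to -0.73, and the limit on the first 3 markers moved Ifitm1 to 1.79, Ifitm2 to -0.089 and Ifitm3 to -0.024. Ifitm1 was 0.59 without its 5 highest cells and Ifitm6 0.028 with doublet calls kept. Each cell counted equally gave -0.075 for Ifitm2 and 0.070 for Ifitm3. Centring on the median of all genes gave -0.033 and 0.12.

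Some ratios turned. Ifitm3 in gamma delta 17 T cell-like cells was 0.74 with doublet calls kept, 0.10 and 0.66 under the whole-list and first-3 limits and 0.044 without its 5 highest cells. Ifitm1 in cluster 7 was 1.45 under the first-3 limit and 0.66 without 5 cells, and in patrolling monocyte-like cells 0.30 under the first-3 limit. Ifitm6 in migratory DC-like cells was -0.18 at resolution 2 (-1.43 to 1.10; 14 and 11 UMIs), in other cells: 562 cells of dendritic cluster 10 then lay in the cDC2-like cluster 13 (0.54, 0.31 to 0.76). Classes of few UMIs are limited by depth.

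Ifitm1 and Ifitm2 were highest in neutrophil-like cells under every alternative run. Ifitm3 led in classical monocyte-like cells except at resolution 0.5 and under the whole-list limit, and Ifitm6 in granulocyte precursor-like cells except under the whole-list limit, which left 64 and 9 of them and put neutrophil-like cells first (272 and 299 CPM).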
